A study of Mus musculus with 18 samples.

Results

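The genes described here are 28 genes of cholesterol and fatty acid synthesis, followed through sorted mouse CD4 T cells. They were taken by gene name from a list that spans the mevalonate arm (6 genes), the steps from squalene to cholesterol (11 genes), 3 regulators and 8 genes of fatty acid synthesis and desaturation. All 28 were among the 20688 genes of a table of 10 Affymetrix arrays. 27 were among the 13121 genes of a second table of 8 arrays, which uses a smaller array without Insig1. Cells make cholesterol by building mevalonate from acetyl-CoA, turning it into isoprenoid units and squalene, and closing and trimming the sterol ring. The transcription factors SREBP1 and SREBP2, encoded by Srebf1 and Srebf2, switch on most of these enzymes when membrane sterol is low, and Insig proteins hold the SREBPs back when it is high. T cells draw on sterol and fatty acid synthesis when they grow and divide, and regulatory T cells (Treg cells) have been linked to the mevalonate pathway.

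The arrays fall into 6 groups of cells from mice aged 6 to 8 weeks, enriched with beads for CD4 and then sorted. The 5 aTreg and 5 Teff arrays hold Foxp3-positive and Foxp3-negative cells of spleen and lymph nodes, all from Foxp3DTR mice that received DT. In Foxp3DTR mice the receptor for diphtheria toxin is tied to Foxp3, the transcription factor of the Treg lineage, so the toxin depletes Treg cells. The labels give neither the dose nor the time of DT, nor whether the aTreg cells outlasted the toxin or arose after it. Foxp3GFP mice, whose Foxp3-expressing cells are marked by green fluorescent protein, gave 2 arrays each of B16_Treg and B16_Teff from tumours of the mouse melanoma B16 and of Spl_Treg and Spl_Teff from spleen and lymph nodes. Every value below is a log2 expression value as deposited, and a difference of 1 is a doubling. The tables were normalized apart, so groups of different tables were related only by the differences measured inside each table. The labels do not say whether arrays of a group come from separate mice, and p-values measure only the spread between these arrays. In such bulk samples a change in the mix of cells and a change in RNA per cell cannot be told apart.

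The labels were checked on Treg markers. Foxp3 read 9.99 and 9.95 on the Spl_Treg arrays and 3.43 or less on all other arrays, including all 5 aTreg and both B16_Treg arrays, so Foxp3 goes against the label there and "Treg" stands for the label throughout. Il2ra, a receptor chain that Treg cells carry at high level, followed the label. It read at least 9.48 on aTreg against at most 6.35 on Teff arrays, 9.54 and 9.16 on B16_Treg against 5.24 and 4.95 on B16_Teff arrays, and 9.12 and 9.01 on Spl_Treg against 4.39 and 4.48 on Spl_Teff arrays. In the smaller table the tumour arrays also differed from the lymphoid arrays in Xist, which the inactive X chromosome of females makes (2.45 to 2.62 on tumour against 10.57 to 11.28 on lymphoid arrays), and in Y-linked Ddx3y (9.91 to 10.32 on tumour against 2.60 to 2.81 on lymphoid arrays). Tumour and lymphoid organ therefore cannot be told apart from this difference between the mice. Among the DT arrays, aTreg array 4 and Teff arrays 4 and 5 correlated least with their own groups (mean r 0.986, 0.982 and 0.982).

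Promoter sequences were at hand for 22 of the 28 genes (RefSeq, build GRCm38.p6, windows of 300 bases around the start of transcription). Of the motifs searched on both strands, CCAAT, the site of the factor NF-Y, was present in 20 of the 27 windows of these genes (19 of 22 genes), against 37.4% of all 32851 promoters of this length. GGGCGG, the site of Sp1, was present in 20 of the 27 windows (18 of 22 genes), against 35.7% of all promoters. TCACNCCAC, a core of the sterol regulatory element that SREBPs bind, was present in 1 of the 27 windows, that of Hmgcs1, and in 1.24% of all promoters. Only this exact pattern was searched, so other forms of the element would be missed in the remaining windows. The windows shown are those of the gene with the largest called difference in each arm, with Cyp51 in place of Sqle, which the promoter table does not list. The capitals mark matches to these motifs on either strand, and each sequence runs 5′ to 3′ along its gene.
Hmgcs1, chr13:119690101-119690400, plus strand: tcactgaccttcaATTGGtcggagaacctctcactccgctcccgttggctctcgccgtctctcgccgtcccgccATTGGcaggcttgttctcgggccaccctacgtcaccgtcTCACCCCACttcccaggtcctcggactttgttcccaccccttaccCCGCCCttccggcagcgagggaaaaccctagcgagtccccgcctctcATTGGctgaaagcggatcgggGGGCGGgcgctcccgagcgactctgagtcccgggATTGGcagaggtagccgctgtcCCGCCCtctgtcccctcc
Cyp51, chr5:4104648-4104947, minus strand: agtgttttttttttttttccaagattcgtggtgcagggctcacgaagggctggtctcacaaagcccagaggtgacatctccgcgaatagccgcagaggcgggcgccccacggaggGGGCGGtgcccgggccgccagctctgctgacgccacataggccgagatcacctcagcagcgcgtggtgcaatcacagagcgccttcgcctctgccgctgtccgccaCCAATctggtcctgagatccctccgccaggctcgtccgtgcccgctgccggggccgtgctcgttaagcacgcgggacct
Srebf2, chr15:82147019-82147318, plus strand: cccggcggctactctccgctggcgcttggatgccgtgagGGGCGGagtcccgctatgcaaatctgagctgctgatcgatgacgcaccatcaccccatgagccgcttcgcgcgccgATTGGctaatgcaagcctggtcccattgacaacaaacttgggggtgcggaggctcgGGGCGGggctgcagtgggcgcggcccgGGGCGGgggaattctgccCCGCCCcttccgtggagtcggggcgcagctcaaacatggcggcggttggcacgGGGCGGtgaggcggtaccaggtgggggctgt
Elovl6, chr3:129532136-129532435, plus strand: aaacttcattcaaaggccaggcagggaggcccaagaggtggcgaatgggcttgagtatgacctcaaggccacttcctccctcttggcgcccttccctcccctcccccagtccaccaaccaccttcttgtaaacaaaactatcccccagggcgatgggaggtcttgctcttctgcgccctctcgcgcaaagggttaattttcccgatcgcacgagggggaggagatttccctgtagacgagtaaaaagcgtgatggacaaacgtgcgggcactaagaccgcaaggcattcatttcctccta
The Hmgcs1 window holds the TCACNCCAC match at -137 to -129 from the start site, with CCAAT matches on both sides of it and GGGCGG matches downstream. Cyp51 has 1 CCAAT and 1 GGGCGG match, Srebf2 has 1 CCAAT match and several of GGGCGG, and the Elovl6 window has none of these letters. A match is a description of the sequence and no record of binding.

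In DT-treated mice, 12 of the 28 genes were higher in aTreg than in Teff cells and 0 were lower (limma, adjusted p under 0.05). Of all genes on these arrays, 10.6% were called, 5.96% higher and 4.61% lower. The called genes were Pmvk, Mvd, Idi1 and Fdps of the mevalonate arm, Fdft1, Sqle, Cyp51, Nsdhl, Hsd17b7 and Ebp of the squalene to cholesterol steps, the regulator Insig1 and the desaturase Fads1. The median log2 difference of the 28 genes was 0.33, against 0.03 over all genes.

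Mvd, the decarboxylase that yields isopentenyl diphosphate, read 7.45, 7.48, 7.56, 7.38 and 7.64 on the aTreg arrays and 6.05, 6.18, 6.22, 5.84 and 6.91 on the Teff arrays. All aTreg values lay above all Teff values, although Teff array 5 came closer than the rest. The means of 7.50 ± 0.10 and 6.24 ± 0.40 (SD, n = 5 each) differed by 1.26 (95% confidence interval 0.90 to 1.62, limma adjusted p = 0.000255), a 2.40-fold change. Idi1, which isomerises isopentenyl diphosphate, read 8.11, 7.96, 8.42, 8.56 and 8.02 on aTreg arrays and 6.97, 6.99, 7.27, 7.34 and 6.46 on Teff arrays. Here too the groups were apart, by 1.21 between means (0.83 to 1.59, limma adjusted p = 0.000486). Fdps, which joins the units into farnesyl diphosphate, was higher by 0.92 (limma adjusted p = 0.0142), but Teff array 5 at 8.42 reached into the aTreg range of 8.34 to 8.97. Pmvk, the phosphomevalonate kinase, rose by 0.52 with limma adjusted p = 0.0489, close to the threshold, and its groups overlapped at Teff array 5. Its call was lost without any 1 of 8 arrays (adjusted p up to 0.132). Hmgcs1, the synthase that opens the pathway, read 8.81 to 9.36 on aTreg arrays, median 8.91, and 7.99 to 8.87 on Teff arrays, median 8.52. Its difference of 0.55 did not pass (limma adjusted p = 0.0578), and did pass without Teff array 4 (adjusted p = 0.0236), without aTreg array 4 and Teff arrays 4 and 5 (adjusted p = 0.0376) and with genes below the median level left out (adjusted p = 0.0453). Mvk, the mevalonate kinase, differed by 0.25 (interval -0.15 to 0.65) and was not called.

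In the steps after squalene, Cyp51, the demethylase of lanosterol, read 7.61, 7.66, 7.86, 7.80 and 7.66 on aTreg arrays and 6.44, 6.70, 7.17, 6.65 and 6.62 on Teff arrays. No Teff array reached the aTreg values. The difference was 1.01 (0.72 to 1.29, limma adjusted p = 0.000221). Nsdhl, a dehydrogenase that helps remove methyl groups from the ring, read 8.51 to 8.58 on all 5 aTreg arrays and 7.51, 7.81, 7.86, 7.42 and 7.69 on Teff arrays. Its aTreg values lay within 0.1 of each other, and the difference of 0.89 (limma adjusted p = 0.000105) had the lowest p of the 28 genes. Ebp, the sterol isomerase, averaged 10.56 ± 0.17 in aTreg and 9.73 ± 0.35 in Teff cells (SD, n = 5 each), a difference of 0.83 (limma adjusted p = 0.00394). Fdft1, the squalene synthase, differed by 0.69 (limma adjusted p = 0.00922), and Sqle, the squalene epoxidase, by 0.63 (limma adjusted p = 0.0048). Hsd17b7, a sterol ketoreductase, differed by 0.75 (limma adjusted p = 0.0302). The groups did not overlap for these 4 genes, and the share of all genes without overlap was not computed. The call of Hsd17b7 was lost without aTreg array 1 or 3 or Teff array 2 (adjusted p up to 0.0683), and that of Fdft1 with the mean of its probe sets (adjusted p = 0.0599), 2 of which were dim. The remaining 5 genes of these steps, Lss, Tm7sf2, Msmo1, Sc5d and Dhcr7, differed by -0.23 to 0.30 and were not called, except that Msmo1 passed without Teff array 3 (adjusted p = 0.0467).

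Insig1, which retains SREBPs in the endoplasmic reticulum and is itself switched on by them, read 6.90, 7.08, 7.03, 6.79 and 6.98 on aTreg arrays and 6.57, 6.51, 6.80, 6.61 and 6.46 on Teff arrays. The groups met at aTreg array 4 and Teff array 3. The difference of 0.36 passed (limma adjusted p = 0.0348), but not without any 1 of 6 arrays (adjusted p up to 0.095). Srebf1 and Srebf2 themselves differed by -0.14 and 0.11 and were not called (intervals -0.50 to 0.21 and -0.29 to 0.50). Without aTreg array 4 and Teff arrays 4 and 5, however, Srebf2 differed by 0.42 and was called (limma adjusted p = 0.049). Fads1, a desaturase of polyunsaturated fatty acids, read 6.42 to 6.58 on aTreg arrays and 5.71 to 6.09 on Teff arrays. All aTreg arrays were higher, by 0.53 between means (limma adjusted p = 0.00423). A second, dimmer probe set of Fads1 gave -0.02, and with the mean of both the difference was 0.26 and the call was lost (adjusted p = 0.167). The enzymes that make the fatty acid chain itself barely differed: Fasn (0.03), Acaca (-0.02) and Acly (0.04) had intervals within -0.34 to 0.39. The elongase Elovl6 differed by 0.76 but varied among arrays, at 6.80 to 7.62 on aTreg and 5.47 to 6.97 on Teff arrays, and was not called (limma adjusted p = 0.0766). It passed without Teff array 4 (adjusted p = 0.0333) and without aTreg array 4 and Teff arrays 4 and 5 (adjusted p = 0.0261). Scd1 and Fads2 had means below the median of the table and were not called.

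**Figure D1:**
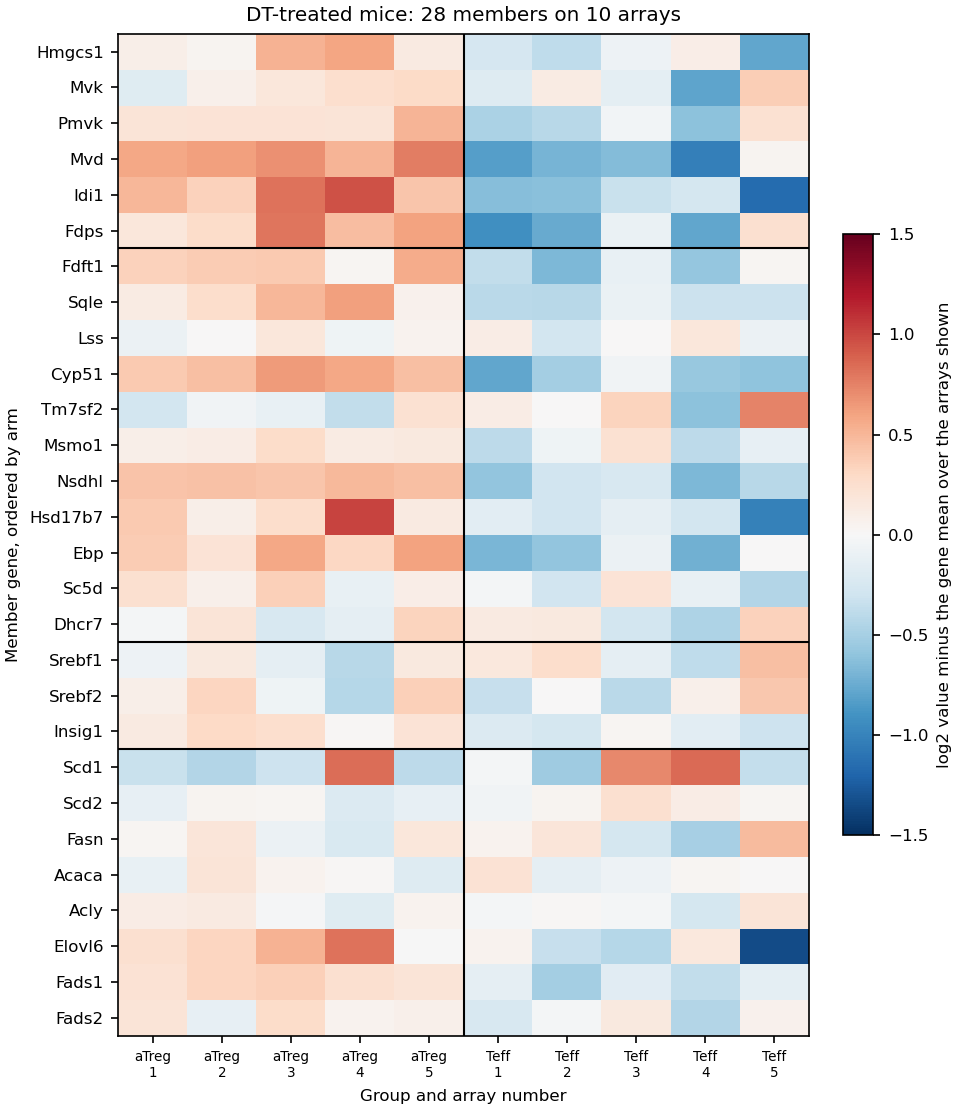
Log2 value of each of the 28 genes minus its mean over the 10 arrays of DT-treated mice, one column per array with aTreg on the left and Teff on the right, and lines between the arms of the pathway. The sterol genes from Mvd to Ebp are mostly red in aTreg and blue in Teff columns, while Fasn, Acaca and Acly differ by 0.04 or less between group means.

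Other genes moved in the same comparison. Of 26 cell cycle genes 23 were higher in aTreg cells and 0 lower, led by Aurkb (1.95) and Bub1 (1.64), kinases of mitosis. Their mean deviation lay between 0.41 and 0.81 on aTreg arrays and between -1.01 and -0.21 on Teff arrays. Of 12 other genes of sterol synthesis, uptake and SREBP control, 4 were higher and 0 lower, among them Stard4, a sterol carrier, at 0.50. Of 7 genes of LXR response and cholesterol export, 0 were higher and 2 lower, Abca1, a cholesterol exporter (-1.59), and Mylip, a ligase that removes lipoprotein receptors (-0.97). Among 17 other lipid synthesis genes 4 were higher and 1 lower, with Dgat1 (1.28) and Dgat2 (1.35), which make triglyceride, and Fabp5 (1.4), a fatty acid carrier, among those higher. Of the genes for isoprenoid use and for cholesterol ester storage, 0 of 9 and 0 of 5 passed. Marker lists of other cells moved as well. Of NK cell markers 0 were higher and 2 lower of 5, with a summed level (log2 of the summed linear values) of 6.58 to 7.21 on aTreg and 8.12 to 8.29 on Teff arrays. Of B cell markers 1 was higher and 3 lower of 8 (summed 8.60 to 10.1 on aTreg against 9.98 to 10.9 on Teff arrays). Among 9 markers of macrophages and dendritic cells 0 were higher and 3 lower (summed 7.61 to 9.08 on aTreg against 8.38 to 9.84 on Teff arrays). Plasmacytoid dendritic cell markers went both ways, 2 higher and 2 lower of 7 (summed 10.03 to 10.11 on aTreg against 9.43 to 10.11 on Teff arrays). Their part in the sterol gene differences, and that of the cell cycle genes, was not tested.

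In spleen and lymph nodes of Foxp3GFP mice the same contrast gave 1 call among 27 genes, with 0 lower. Over all genes 13.9% were called, 7.47% higher and 6.42% lower. The gene was Ebp, at 9.25 and 9.12 on Spl_Treg and 8.82 and 8.78 on Spl_Teff arrays. Both Spl_Treg arrays were higher, by 0.38 (limma adjusted p = 0.0241), and the call was lost without Spl_Treg array 1 or either Spl_Teff array (adjusted p up to 0.141). The median difference of the 27 genes was -0.02, against 0.00 over all genes. Mvd, Idi1 and Cyp51 differed by 0.20, 0.08 and 0.06 and none was called. Hmgcs1, Fdps, Sqle and Lss differed by -0.43, -0.49, -0.35 and -0.43, also uncalled. Their intervals reach from -1.05 to 0.08 (limma adjusted p from 0.0936 to 0.297). Lss was called lower with the mean of its probe sets (adjusted p = 0.0324), with genes below the median level left out (adjusted p = 0.0442) and without Spl_Treg array 1 (-0.62, adjusted p = 0.0431), and its dimmer probe sets gave -0.64 and -0.21. Fdps was called lower without either B16_Teff array (adjusted p = 0.0323), which changes only the spread shared by the 4 groups. Without Spl_Treg array 2, Mvk (-0.27) was called lower (-0.41, adjusted p = 0.042), and Scd2 (0.38) was called higher without either B16_Teff array (adjusted p = 0.0293). Cell cycle genes were called here as well, 15 higher and 0 lower of 26, such as Tk1 at 1.4 and Mki67 at 0.97. Their mean deviation was 0.11 and 0.29 on Spl_Treg and -0.41 and -0.33 on Spl_Teff arrays. Plasmacytoid dendritic cell markers were lower for 4 of 6 and higher for 0, with summed levels of 9.55 and 9.93 on Spl_Treg and 10.6 and 10.7 on Spl_Teff arrays. Of 8 B cell markers 1 was higher and 2 lower (9.82 and 10.3 on Spl_Treg against 11.3 and 11.7 on Spl_Teff arrays). Of 4 NK cell markers 0 were higher and 1 lower (6.25 and 6.58 on Spl_Treg against 8.11 and 7.66 on Spl_Teff arrays). Among 9 macrophage and dendritic cell markers 2 were higher and 2 lower. The part of these markers was not tested. Mylip was the called gene of the LXR list, at -0.80, and Fabp5 (1.70) and Dgat2 (0.97) were among the 3 higher of 15 other lipid synthesis genes.

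In B16 tumours 6 of 27 genes were higher in B16_Treg than in B16_Teff cells and 4 were lower, while 25.6% of all genes were called, 14.0% higher and 11.6% lower. The median difference was 0.03, against 0.01 over all genes. Higher were Fdft1, Cyp51, Nsdhl, Hsd17b7 and Ebp of the squalene to cholesterol steps and the regulator Srebf2. Lower were Tm7sf2, a sterol reductase, and Elovl6, Fads1 and Fads2, which lengthen and desaturate fatty acids. These are 5 higher and 1 lower of the 11 squalene to cholesterol genes and 0 higher and 3 lower of the 8 fatty acid genes, and the arms were not tested against each other. None of the 6 mevalonate arm genes was called, with differences from -0.30 (Fdps) to 0.44 (Idi1). Idi1 passed with the mean of its probe sets (adjusted p = 0.0443), with genes below the median level left out (adjusted p = 0.0494) and without B16_Teff array 1 (difference 0.69, adjusted p = 0.0144), and its dimmer probe set gave 0.59. Fdps turned on the B16_Teff arrays, at -0.74 and called lower without B16_Teff array 2 (adjusted p = 0.0103), and at 0.13 and not called without array 1. Dhcr7, at -0.33, was called lower without B16_Teff array 2 (adjusted p = 0.0383) and with genes below the median level left out (adjusted p = 0.0276), and Scd2 (-0.12) was called lower without B16_Teff array 2 (-0.40, adjusted p = 0.0414).

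Cyp51 read 8.72 and 8.67 on B16_Treg and 7.91 and 7.66 on B16_Teff arrays. The B16_Treg arrays were higher by 0.91 (0.49 to 1.32, limma adjusted p = 0.00679). Ebp read 9.66 and 9.54 on B16_Treg against 8.97 and 9.00 on B16_Teff arrays, a difference of 0.62 (limma adjusted p = 0.00131). Fdft1 (0.48), Nsdhl (0.32) and Hsd17b7 (0.54) were higher with limma adjusted p of 0.034, 0.0375 and 0.0426. Each of these calls was lost without any 1 of at least 5 arrays. The call of Fdft1 was also lost with the mean of its probe sets. Fads1 read 6.23 and 6.27 on B16_Treg and 6.99 and 6.96 on B16_Teff arrays. Its arrays agreed closely within each group, and the difference of -0.73 (-0.91 to -0.54, limma adjusted p = 0.000336) had the lowest p of the 27 genes. Fads2, the other desaturase of that pathway, averaged 3.99 on the B16_Treg arrays, which differed by little, against 5.53 and 4.58 on the B16_Teff arrays. The B16_Teff arrays were higher but far apart. Fads2 had a mean below the median of this table, and its difference was -1.06 (limma adjusted p = 0.0144). It was not called without either B16_Treg array (adjusted p up to 0.0659). Elovl6 read 8.13 and 8.03 on B16_Treg and 8.66 and 8.50 on B16_Teff arrays, a difference of -0.50 (limma adjusted p = 0.0117), lost without B16_Teff array 1 or B16_Treg array 2 (adjusted p up to 0.0731). Tm7sf2 differed by -0.82 (limma adjusted p = 0.0124), with 6.18 and 6.11 on B16_Treg against 7.28 and 6.64 on B16_Teff arrays, and was lost without either B16_Treg array (adjusted p up to 0.0662). The counts turned most on B16_Teff array 2 and on B16_Treg array 2. Leaving out either leaves 1 array in its group, and fewer genes were then called over all genes.

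Markers of other cells differed between these groups. Plasmacytoid dendritic cell markers were lower in B16_Treg arrays for 6 of 6 genes, with summed levels of 9.53 and 9.74 on B16_Treg and 13.4 and 12.4 on B16_Teff arrays 1 and 2. Both CD8 T cell markers were lower (7.27 and 7.15 on B16_Treg against 9.34 and 8.42 on B16_Teff arrays). Among 9 markers of macrophages and dendritic cells 1 was higher and 4 were lower (9.60 and 8.85 on B16_Treg against 12.3 and 11.5 on B16_Teff arrays). Of 8 B cell markers 1 was higher and 3 were lower (8.93 and 8.76 on B16_Treg against 12.6 and 11.8 on B16_Teff arrays). On the B16_Teff arrays these 4 sums and the levels of Fads2, Tm7sf2, Fdps and Idi1 were higher on array 1 than on array 2. The mean deviation of all 27 members was also higher on array 1 (0.41 against 0.12), as was the melanoma marker sum (11.2 against 10.2). The stromal and endothelial marker sum was lower on array 1 (9.49 against 10.3). The part of these markers in the member differences was not tested. Of 26 cell cycle genes 20 were higher and 0 lower, led by Ccnb2 (2.57), and fatty acid oxidation genes 8 higher and 1 lower of 14, led by Acads (0.73). Of the other sterol and SREBP genes 4 were higher and 2 lower of 9, with Stard4 at 0.96 and Erlin1, which curbs SREBP activation, at -0.76. The LXR list had 0 higher and 3 lower of 7, Mylip at -2.25, Abca1 at -1.25 and Abcg1 at -0.71. Dgat2 was higher by 2.12.

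Set against Spl_Treg cells, B16_Treg cells had 15 of 27 genes higher and 2 lower. Over all genes 23.6% were called, 11.4% higher and 12.2% lower. The median difference was 0.44, against -0.03 over all genes. 3 of 6 mevalonate arm genes, 9 of 11 genes from squalene to cholesterol, Srebf1, Srebf2 and Elovl6 were higher, and Scd2 and Fasn were lower. B16_Teff cells set against Spl_Teff cells had 13 genes higher and 1 lower, where 15.9% of all genes were called, 7.66% higher and 8.27% lower. Here the median difference was also 0.44, against -0.04 over all genes. 4 of 6 mevalonate arm genes, 5 of 11 from squalene to cholesterol, Srebf2, Elovl6, Fads1 and Fads2 were higher, and Fasn was lower. These 2 comparisons share no group means, but both use the spread estimated from all 8 arrays, and both carry the difference in Xist and Ddx3y. Of all genes 590 were higher in both, which is 39.4% of those higher for Treg and 58.7% of those higher for Teff. 10 of the members were higher in both, which is 66.7% of the 15 and 76.9% of the 13, and these shares were not tested against those of all genes. The 10 were Hmgcs1, Idi1, Fdps, Fdft1, Sqle, Cyp51, Msmo1, Sc5d, Srebf2 and Elovl6.

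Hmgcs1, whose promoter window holds the TCACNCCAC match, read 10.38 and 10.32 on B16_Treg and 10.62 and 10.09 on B16_Teff arrays, against 8.39 and 8.70 on Spl_Treg and 8.83 and 9.11 on Spl_Teff arrays. Every tumour array was above every lymphoid array. The difference was 1.80 for Treg (3.49-fold, interval 1.38 to 2.23, limma adjusted p = 0.000271) and 1.38 for Teff (2.61-fold, 0.96 to 1.81, limma adjusted p = 0.00206). All 4 of its probe sets gave 1.70 to 1.80 for Treg. Sqle read 8.54 and 8.23 on B16_Treg and 8.38 and 7.90 on B16_Teff arrays, against 6.35 and 6.48 on Spl_Treg and 6.58 and 6.95 on Spl_Teff arrays. Tumour arrays were again all higher, by 1.97 for Treg (limma adjusted p = 0.000189) and 1.37 for Teff (limma adjusted p = 0.00229). Idi1 differed by 1.80 and 1.45, Msmo1, an oxidase that attacks the methyl groups of the ring, by 1.68 and 1.39, and Cyp51 by 1.83 and 0.99, Treg first. The Teff call of Cyp51 was lost without B16_Teff array 1 (adjusted p = 0.0507). Fdps differed by 1.18 and 0.997 and Fdft1 by 1.04 and 0.79. The calls of Fdps were lost for Treg without B16_Treg array 1 or Spl_Treg array 2 (adjusted p up to 0.0633), and for Teff without B16_Teff array 1 or either Spl_Teff array (adjusted p up to 0.138). Sc5d, a sterol desaturase, differed by 0.70 and 0.78. The mean of the probe sets gave smaller values for these 3 genes, at 0.57 and 0.49 for Fdps, 0.38 and 0.31 for Fdft1 and 0.31 and 0.40 for Sc5d, Treg first. With it the Teff calls of Fdps (just above the threshold) and Fdft1 (adjusted p = 0.0733) and the Treg call of Sc5d (adjusted p = 0.0754) were lost.

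Lss, which closes the sterol ring, was called for Treg (0.65, limma adjusted p = 0.013) and not for Teff (0.34, adjusted p = 0.17). Nsdhl (0.44), Hsd17b7 (1.06) and Ebp (0.42) were likewise called for Treg, while for Teff they differed by 0.29, 0.44 and 0.18 and were not called, except that Nsdhl passed with genes below the median level left out (adjusted p = 0.028) and Hsd17b7 with the mean of its probe sets (adjusted p = 0.0306). None of these 4 genes passed the test of the difference between the Treg and Teff changes (adjusted p from 0.185 to 0.629). The calls of Lss and Ebp were lost without B16_Treg array 1 or Spl_Treg array 2, and that of Nsdhl without B16_Treg array 2 or Spl_Treg array 1 (adjusted p up to 0.09). Pmvk was called for Teff (0.40, limma adjusted p = 0.0425), and not without any 1 of 7 arrays (adjusted p up to 0.197). For Treg it differed by 0.35 (adjusted p = 0.0506), and passed in 6 of 12 alternatives. Mvd had the largest difference in DT-treated mice. In the smaller table it was measured by another probe set, with a mean below the table median. Mvd was called in neither comparison, at 0.54 for Treg (limma adjusted p = 0.0736) and 0.50 for Teff (limma adjusted p = 0.115). It passed for Treg without B16_Treg array 2 or either B16_Teff array, and for Teff without B16_Teff array 2 (lowest adjusted p 0.0312 and 0.0335). Tm7sf2, Dhcr7 and Mvk were also called in neither comparison, with differences of -0.35, -0.31 and 0.20 for Treg and 0.21, 0.13 and -0.21 for Teff. Dhcr7 passed as lower for Treg with genes below the median level left out (limma adjusted p = 0.0369). Tm7sf2 depended on single B16_Teff arrays, and its difference for Teff ranged from -0.11 to 0.53 over the alternatives.

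Srebf2 read 7.89 and 7.78 on B16_Treg and 7.39 and 7.27 on B16_Teff arrays, against 6.58 and 6.69 on Spl_Treg and 6.79 and 6.98 on Spl_Teff arrays. The B16_Treg arrays were highest and the Spl_Treg arrays lowest. It differed by 1.20 for Treg (0.97 to 1.43, limma adjusted p = 9.15e-05) and 0.44 for Teff (limma adjusted p = 0.0203), and the Teff call was lost without B16_Teff array 1 or Spl_Teff array 1 (adjusted p up to 0.137). The tumour Treg to Teff difference of 0.51 (limma adjusted p = 0.00684) was lost without B16_Treg array 1 (adjusted p = 0.0515). These values come from the brighter of 2 probe sets. The other gave 0.14 for Treg, 0.28 for Teff and 0.05 for B16_Treg minus B16_Teff, none of them called, so the probe sets of Srebf2 disagree. Srebf1 was higher in B16_Treg than in Spl_Treg cells by 0.30 (limma adjusted p = 0.0281), a call lost without any 1 of those 4 arrays (adjusted p up to 0.12).

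Of the 8 fatty acid genes, 1 was higher and 2 were lower for Treg, and 3 were higher and 1 lower for Teff. They were not tested against the sterol genes. Elovl6 read 8.13 and 8.03 on B16_Treg and 8.66 and 8.50 on B16_Teff arrays, against 7.29 and 7.29 on Spl_Treg and 7.16 and 7.43 on Spl_Teff arrays. All tumour arrays were higher, by 0.79 for Treg (limma adjusted p = 0.00136) and 1.29 for Teff (limma adjusted p = 0.000289). Fasn, the synthase of the fatty acid chain, read 7.66 and 7.78 on B16_Treg and 7.88 and 7.66 on B16_Teff arrays, against 8.14 and 8.09 on Spl_Treg and 8.12 and 8.15 on Spl_Teff arrays. It was lower in the tumour by 0.40 for Treg and by 0.36 for Teff (differences -0.40 and -0.36, limma adjusted p = 0.0203 and 0.0402). The Treg call was lost without B16_Treg array 1 or either Spl_Treg array (adjusted p up to 0.122) and the Teff call without any 1 of 7 arrays (adjusted p up to 0.179). Scd2, a desaturase of saturated fatty acids, was lower in B16_Treg cells (-0.57, limma adjusted p = 0.0363), lost without any 1 of 6 arrays (adjusted p up to 0.148), and its 2 dimmer probe sets gave -0.22 and 0.02. Fads1 was higher in B16_Teff than in Spl_Teff cells by 0.55 (limma adjusted p = 0.00318) and differed by -0.24 between B16_Treg and Spl_Treg cells (adjusted p = 0.0631, and 0.0206 at the lowest of 2 alternatives in which it passed). Fads2 was called in B16_Teff cells (0.96, limma adjusted p = 0.0334), not without any 1 of 6 arrays (adjusted p up to 0.139). Fads2, Scd1 and Acaca had means below the median of this table, and Scd1 was not called. Acaca was measured there by 1 dim probe set, near 3.7, with 0 calls. Acly differed by -0.32 for Treg (limma adjusted p = 0.0515) and by -0.10 for Teff, and was not called. For Treg it passed as lower with genes below the median level left out.

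**Figure D2:**
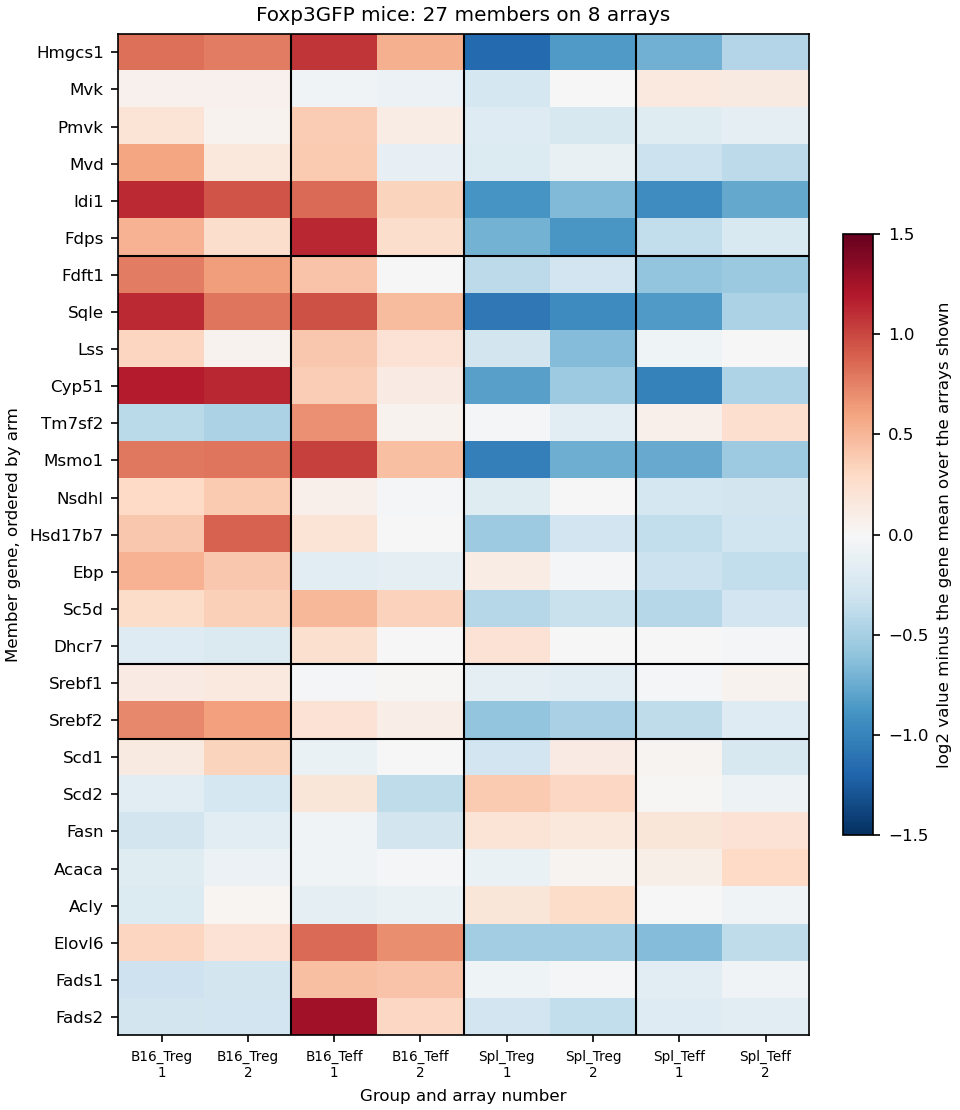
Log2 value of each of the 27 genes minus its mean over the 8 arrays of Foxp3GFP mice, with B16_Treg, B16_Teff, Spl_Treg and Spl_Teff arrays from left to right and lines between groups and arms. Hmgcs1, Idi1, Sqle, Cyp51 and Msmo1 are higher on all 4 tumour arrays than on all 4 lymphoid arrays, and Fads1 and Fads2 are highest on the B16_Teff arrays.

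The tumour arrays differed from the lymphoid arrays in markers too. Melanoma markers were higher for 5 of 6 genes in both comparisons, with summed levels of 11.2 and 10.7 on B16_Treg and 11.2 and 10.2 on B16_Teff arrays, against 7.52 and 7.56 on Spl_Treg and 7.63 and 7.60 on Spl_Teff arrays. Stromal and endothelial markers were higher for 6 of 7 in both. All 6 plasmacytoid dendritic cell markers were higher in B16_Teff than in Spl_Teff cells, and between B16_Treg and Spl_Treg cells 1 was higher and 2 lower. Both CD8 T cell markers were higher in B16_Teff cells (Cd8a by 1.22 and Cd8b1 by 1.80), with summed levels of 9.34 and 8.42 on B16_Teff against 7.14 and 7.22 on Spl_Teff arrays, and 0 of the 2 were called between B16_Treg and Spl_Treg cells (7.27 and 7.15 on B16_Treg arrays, with both Spl_Treg arrays lower). Of 9 macrophage and dendritic cell markers 1 was higher and 3 lower for Treg (summed 9.60 and 8.85 on B16_Treg against 10.4 and 10.8 on Spl_Treg arrays), and 4 were higher and 2 lower for Teff (12.3 and 11.5 on B16_Teff against 10.4 and 10.6 on Spl_Teff arrays). Of 8 B cell markers 0 were higher and 5 lower for Treg (8.93 and 8.76 on B16_Treg against 9.82 and 10.3 on Spl_Treg arrays), and 0 higher and 2 lower for Teff (12.6 and 11.8 on B16_Teff against 11.3 and 11.7 on Spl_Teff arrays). The part of these markers in the sterol gene differences was not tested. Of 26 cell cycle genes 10 were higher and 2 lower for Treg and 2 higher and 3 lower for Teff. Of the LXR list 0 were higher and 3 lower for Treg (Abca1 -2.35, Mylip -2.05 and Abcg1 -1.61), and 0 higher and 2 lower for Teff (Abcg1 -0.67 and Mylip -0.60). Of 9 other sterol and SREBP genes 5 were higher and 2 lower for Treg, and 3 higher and 1 lower for Teff. Dgat1 was higher by 2.76 and 2.28.

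Whether the Treg to Teff difference itself differed between tumour and lymphoid organs was tested as an interaction. 1 of 27 genes was higher and 1 lower, where 5.86% of all genes were called, 2.85% higher and 3.01% lower. Srebf2 differed by 0.51 between B16_Treg and B16_Teff and by -0.25 between Spl_Treg and Spl_Teff cells, an interaction of 0.75 (0.43 to 1.08, limma adjusted p = 0.0199). It was lost with the mean of its probe sets and without B16_Treg array 1, B16_Teff array 2, Spl_Treg array 1 or Spl_Teff array 2 (adjusted p up to 0.15). Fads1 differed by -0.73 in the tumour and by 0.06 in lymphoid organs, an interaction of -0.79 (-1.05 to -0.53, limma adjusted p = 0.00673), and was called in every alternative tried. Cyp51 differed by 0.91 in the tumour and 0.06 in lymphoid organs, yet its interaction of 0.85 (0.26 to 1.43) was not called (adjusted p = 0.105), except without Spl_Teff array 1 (adjusted p = 0.0358). For the 6 genes of the mevalonate arm, the interactions ranged from -0.05 to 0.42 with 0 called.

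**Figure D3:**
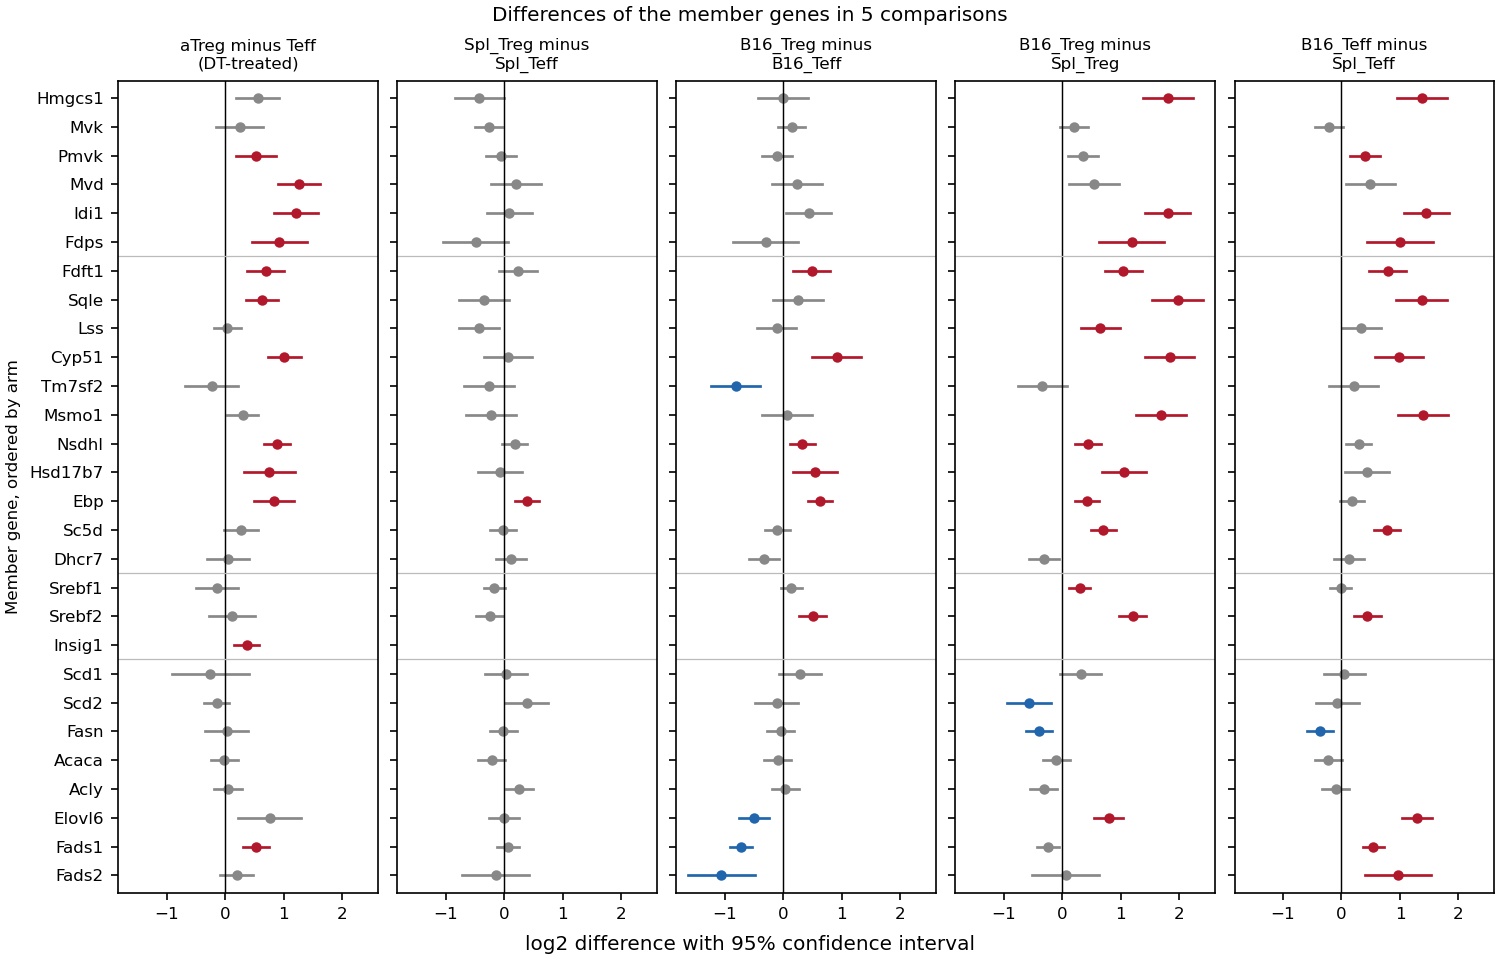
Log2 difference of each gene in 5 comparisons, the first-named group minus the second, with 95% confidence intervals from limma. Red marks genes called higher, blue genes called lower and grey genes not called. Red points are most frequent among the sterol genes of DT-treated mice and of both tumour against spleen panels, and the spleen panel has 1, Ebp.

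By arm, the mean deviation of the 6 mevalonate arm genes was 0.22 to 0.53 on aTreg arrays and -0.56 to -0.17 on Teff arrays. For the 11 genes from squalene to cholesterol it was 0.18 to 0.29 on aTreg and -0.41 to -0.02 on Teff arrays, and for the 8 fatty acid genes -0.03 to 0.17 on aTreg and -0.16 to 0.02 on Teff arrays. In the sterol arms the groups were apart, and in the fatty acid arm they overlapped. In Foxp3GFP mice the mevalonate arm lay at 0.55 and 0.38 on B16_Treg, 0.63 and 0.17 on B16_Teff, -0.57 and -0.45 on Spl_Treg and -0.40 and -0.31 on Spl_Teff arrays. The 11 later genes lay at 0.46 and 0.43 on B16_Treg, 0.43 and 0.14 on B16_Teff, -0.40 and -0.36 on Spl_Treg and -0.42 and -0.28 on Spl_Teff arrays. Tumour arrays were above lymphoid arrays in both sterol arms. The cell cycle genes were arranged otherwise, at 0.55 and 0.51 on B16_Treg, -0.39 and -0.32 on B16_Teff, 0.29 and 0.11 on Spl_Treg and -0.41 and -0.33 on Spl_Teff arrays. There the arrays labelled Treg were above those labelled Teff in tumour and lymphoid organ alike, and B16_Teff was close to Spl_Teff. The DT comparison and the tumour comparisons were not tested against each other, since they come from separately normalized tables.

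**Figure D4:**
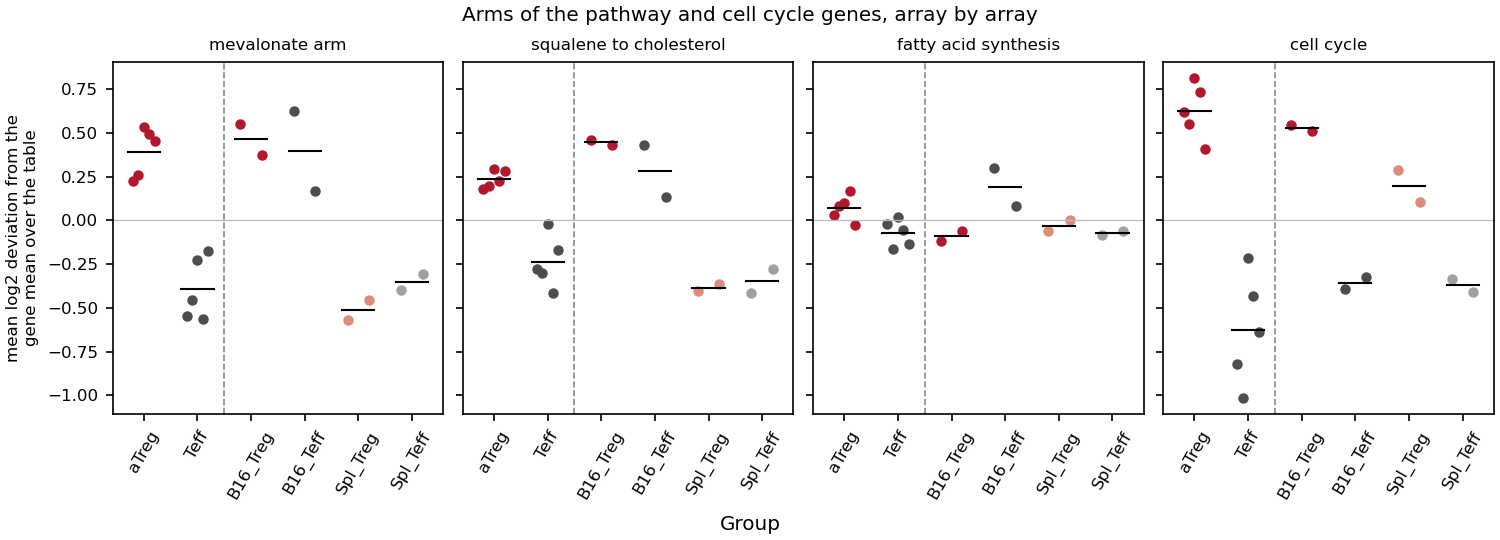
Mean log2 deviation from each gene's table mean, one point per array, for the mevalonate arm, the squalene to cholesterol steps, fatty acid synthesis and cell cycle genes, with a bar at each group mean. The dashed line parts the separately normalized tables. Both sterol arms are high on B16_Treg and B16_Teff arrays, while cell cycle genes are high on B16_Treg and low on B16_Teff arrays.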

How the data were processed

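Total RNA of sorted cells was hybridised to Affymetrix arrays, 18 in 6 groups, taken with their array numbers from the labels. The authors deposited log2 values made with RMA, per the submitters' processing notes. They form 1 table of 45101 probe sets on 10 arrays and 1 of 22690 on 8. The sources used here give neither the RMA version nor the annotation release. Scanner files were not used here, so no detection call was available, and genes with a mean below the table median were treated as dim in 1 alternative. The number of arrays limits the precision. 21 value columns of a deposited annotation table were left out, since they could not be assigned to samples.

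Names came from the deposited gene columns, updated through RefSeq (GRCm38.p6, names only): 38279 and 21420 had 1 name. The probe set with the highest mean stood for a gene. It differs between the tables for Hmgcs1, Mvd, Hsd17b7 and Acaca, and probe sets ending in _x_at or _s_at can match other transcripts. Each table was fitted across all its genes with lmFit and eBayes of limma 3.58.1 (R 4.3.3), without a replicate block, and p-values were adjusted by Benjamini-Hochberg over all genes, with 0.05 as the threshold. The 4 groups of the smaller table shared 1 fit. The scripts were tested on simulated data. Array medians lay within 4.05 to 4.14 and 5.87 to 5.90, and no further scaling was applied. Alternatives were the mean of probe sets, dim genes left out, arrays centred on their median, the array number as a block, aTreg array 4 with Teff arrays 4 and 5 left out, and each array left out in turn. Genes outside the 28 were named only where called, at most 4 per list and comparison. Not every called gene of the sterol and SREBP list is reported here. The 28 genes and all lists were chosen with earlier results of these data known. Figures were drawn with matplotlib 3.10.9.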

Additional observations from a re-analysis of the deposited data

Results flagged for a closer look

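Among the 56 groups of 5 arrays examined (28 genes in aTreg and Teff), 3 held an array far from the rest by Dixon's ratio, the gap to the nearest array over the range, with a critical value of 0.71. Chance gives about 1 in 20 groups. Pmvk read 7.96 on aTreg array 5 (ratio 0.932), Hsd17b7 read 5.06 on Teff array 5 (ratio 0.817), and Scd1, a dim gene, read 4.28 on aTreg array 4 (ratio 0.896).

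The interaction test gave 0.75 for Srebf2 and -0.79 for Fads1. For another pair of settings the difference was not tested. Sqle differed by 0.63 between aTreg and Teff cells and by -0.35 between Spl_Treg and Spl_Teff cells, with arrays apart in opposite directions. Groups of 2 arrays part easily, however, and the spleen difference was not called (limma adjusted p = 0.297). Fads1 differed by 0.53 between aTreg and Teff cells and by -0.73 between B16_Treg and B16_Teff cells, both called. The call in DT-treated mice rests on the brighter probe set. It was lost with the mean of the probe sets (difference 0.26, limma adjusted p = 0.167).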

How the results depend on the processing

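Of 2013 values recomputed for single genes, 0 called values reversed, 106 lost and 49 gained a call, and 59 changed sign while never called. Calls kept in every alternative were 7 of 12 in DT-treated mice (Mvd, Idi1, Fdps, Sqle, Cyp51, Nsdhl and Ebp), 0 of 1 in spleen, 3 of 10 in the tumour (Cyp51, Ebp and Fads1), 9 of 17 for B16_Treg against Spl_Treg, 7 of 14 for B16_Teff against Spl_Teff and 1 of 2 for the interaction. Uncalled genes that passed in at least 1 alternative numbered 6 for B16_Treg against Spl_Treg and 4 in each of the other comparisons and in the interaction. Beside single arrays left out, the counts moved by over 1.5 times in these cases. Genes lower in spleen numbered 1 (Lss) in place of 0 with the mean of probe sets and with dim genes left out. Over all genes fitted, 6.74% and 14.3% were lower there, in place of 6.42%. Genes lower in B16_Treg than in Spl_Treg cells numbered 5 in place of 2 with dim genes left out. In that setting 24.8% of all genes fitted were lower, in place of 12.2%. Genes lower in B16_Teff than in Spl_Teff cells numbered 0 in place of 1 with the replicate block, where 7% of all genes were lower, in place of 8.27%. The higher interaction count was 0 in place of 1 with the mean of probe sets, where 2.93% of all genes were higher, in place of 2.85%. Leaving out 1 array gave 9 to 13 higher and 0 lower in DT-treated mice. Over all genes it gave 4.37% to 7.85% higher and 3.25% to 6.83% lower there. In the smaller table, leaving out 1 array leaves 1 array in a group. The counts of members and of all genes both depended there on the array left out. The cause of these changes was not tested.

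The check made did not settle whether the array numbers pair the arrays, and the main fits took them as unpaired. Deviations of same-numbered arrays correlated at 0.04 to 0.50 in DT-treated mice. There numbers 3, 4 and 5 matched best with their own, and numbers 1 and 2 did not. The correlation was 0.025 in spleen, 0.196 in the tumour, and -0.027 and -0.078 between tumour and spleen. In groups of 2 arrays the deviations mirror each other, so the check can say little there. With the number as a block, 14 genes were higher in DT-treated mice, in place of 12, where 8.28% of all genes were, in place of 5.96%. The block added Hmgcs1 (adjusted p = 0.00592) and Elovl6 (adjusted p = 0.00452) there, added Pmvk and Mvd for B16_Treg against Spl_Treg (adjusted p = 0.049 and 0.0466), and ended the calls of Nsdhl for B16_Treg against B16_Teff (adjusted p = 0.0538) and of Fasn for B16_Teff against Spl_Teff (adjusted p = 0.0603). Without aTreg array 4 and Teff arrays 4 and 5, 15 genes were higher, where 9.36% of all genes were. Groups of 2 arrays and the lack of detection calls limit what can be said of dim genes.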
